A study of Mus musculus with 5 samples.

Results

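The solute carrier (Slc) mRNAs are the transcripts of the mouse membrane transporter genes whose symbol is Slc followed by a family number, a letter and a member number, such as Slc39a7. Of 22028 protein_coding genes in the GENCODE M21 annotation of mm10, 361 had such a symbol, and the members described here are the positions that lay on their exons and on their strand. In the METTL3 inhibition dataset, 31 of the 361 Slc genes had positions, 7813 in all, among 2607 protein_coding genes and 458029 exonic positions. In the Mettl5 dataset, 15 Slc genes had 4756 positions, among 1009 genes and 186529 positions. The 2 datasets had 13 Slc genes in common and 33 together. A further 24 protein_coding symbols begin with Slc but fall outside the rule, for example Slc9a3r1, and were not counted.

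N6-methyladenosine (m6A) levels were measured by nanopore direct RNA sequencing of poly(A) RNA from mouse embryonic stem cells (mESCs), which reads the modification of each adenosine on the native molecule. The first dataset held 1 DMSO library (0.025% of the volume) and 1 library treated for 48 h with 30 µM STM2457, an inhibitor of the catalytic subunit of the m6A writer. Both came from E14 mESCs that also carried a 2C::3xtbGFP-PEST reporter, a Zscan4::mCherry-PEST reporter, a non-induced Dox::APOBEC1-YTH-HA-IRES-tdiRFP transgene and a homozygous, non-induced FKBP12 F36V knock-in at the C-terminus of Mettl3, so the DMSO library came from an engineered line. The second dataset held 1 WT library and 1 library from each of 2 Mettl5-KO clones, c1 and c2, which were made in an earlier study and share that WT library. Cells of both datasets were grown in serum and LIF, with 2i inhibitors added to the medium for maintenance. The datasets differ in cell line, so line and any batch difference cannot be told apart between them. No position of Mettl3 or Mettl5 itself was among those analysed, so neither targeted gene could be checked.

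Solute carriers move amino acids, sugars, nucleotides, ions, metals and vitamins across the plasma membrane and the membranes of organelles, and the family of Slc25 carriers serves the inner mitochondrial membrane. In fast-growing stem cells they supply glucose, glutamine, essential amino acids and zinc. M6A is placed on mRNA by METTL3 with METTL14 inside DRACH motifs (D is A, G or U, R is A or G, H is A, C or U), mainly in long exons and around the stop codon. METTL5 is known as the methyltransferase of 18S ribosomal RNA.

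The methylation level is the number of m6A calls over the number of valid calls, in percent, and a site is a position with more than 25 valid calls in every library of its dataset and 25% or more in at least 1 of them. Valid calls summed to between 17897440 (c1) and 71574467 (DMSO) per library, and the Slc exons took 1.29 to 1.76% of them. Median coverage of an Slc position was 61 calls in DMSO, 56 in STM2457, 61 in WT, 50 in c1 and 52 in c2. Of 10 mESC markers, 10 had positions in the first dataset and 8 in the second, and 0 of 5 feeder fibroblast and 0 of 6 differentiation markers had any. Each condition other than the knockout had 1 library, so differences between libraries had no replicate check. Intervals are exact 95% Clopper-Pearson intervals and cover counting error only.

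Slc mRNAs were methylated at many sites in the DMSO library and lost most of that methylation with STM2457. There were 124 Slc sites on 27 of the 31 genes, or 87.1% of the genes, beside 64.0% of all covered protein_coding genes. The median number of covered positions per gene was 244 for the Slc genes and 141 for all genes. More covered positions give a gene more chances to hold a site, so these shares of genes are not a like comparison. Per 1000 adenosines covered, Slc exons had 15.9 sites and all protein_coding exons 13.4. The mean site level was 58.0% in DMSO (SD 25.7 over 124 sites) and 17.7% in STM2457 (SD 17.7). Of the 124 sites, 120 were lower in STM2457, beside 5975 of all 6159 protein_coding sites, a similar share.

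The sites that were highest in DMSO among those with at least 50 valid calls in both libraries show what such a site looks like. They are printed 5′ to 3′ as DNA letters of the GENCODE M21 transcripts, 21 bases centred on the called adenosine, with the DRACH 5-mer in capitals.
Slc7a5 chr8:121882785 (minus strand, 3′ UTR): tgaggcctGGACTttctgact
Slc39a7 chr17:34030992 (minus strand, CDS of exon 1): acgaccatGGACActcacgtg
Slc2a1 chr4:119136604 (plus strand, 3′ UTR): gatattcaGGACTttgatggc
Slc2a3 chr6:122729848 (minus strand, 3′ UTR): atgaaccaGGACTgcttctga
Slc39a7 chr17:34028434 (minus strand, 3′ UTR): tggcagaaGGACTggggtaga
Slc7a5 chr8:121882442 (minus strand, 3′ UTR): gctagcttGGACTttagtttt
Slc2a1 chr4:119136850 (plus strand, 3′ UTR): atggccaaGGACAcactaata
Slc2a1 chr4:119136865 (plus strand, 3′ UTR): ctaataccGAACTctgagcta
Slc25a11 chr11:70644349 (minus strand, 3′ UTR): ctccctgaGGACTtaataaat
Slc29a1 chr17:45585508 (minus strand, 3′ UTR): ctgcgggtGGACTtggaattc

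All 10 held an AC core and 9 of them GGAC. The first, in Slc7a5, was at 98.0% of 99 calls in DMSO (interval 92.9 to 99.8%) and 45.7% of 70 calls in STM2457 (33.7 to 58.1%). The last, in Slc29a1, was at 86.1% of 151 calls and then 20% of 135. The levels of these 10 sites in STM2457 ranged from 10% (Slc25a11) to 51.7% (Slc2a1 119136604), and each was called lower.

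Per gene, the level over all adenosines ran from 0.59% in Slc38a4 to 4.79% in Slc1a5 in the DMSO library. The median over the 31 genes was 1.90% in DMSO and 0.954% in STM2457, beside 1.52% and 0.866% over all 2607 genes. The level was lower in STM2457 in 30 of the 31 Slc genes, where 93% of all genes were lower. It was at most 50% of the DMSO level in 19 of 31, where 41.2% of all genes were. The median decrease was 51% for the Slc genes and 45.7% for all genes. The exception was Slc25a1, the mitochondrial citrate carrier, with 318 m6A calls of 32586 in DMSO (0.98%) and 230 of 21857 in STM2457 (1.05%).

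**Figure D1:**
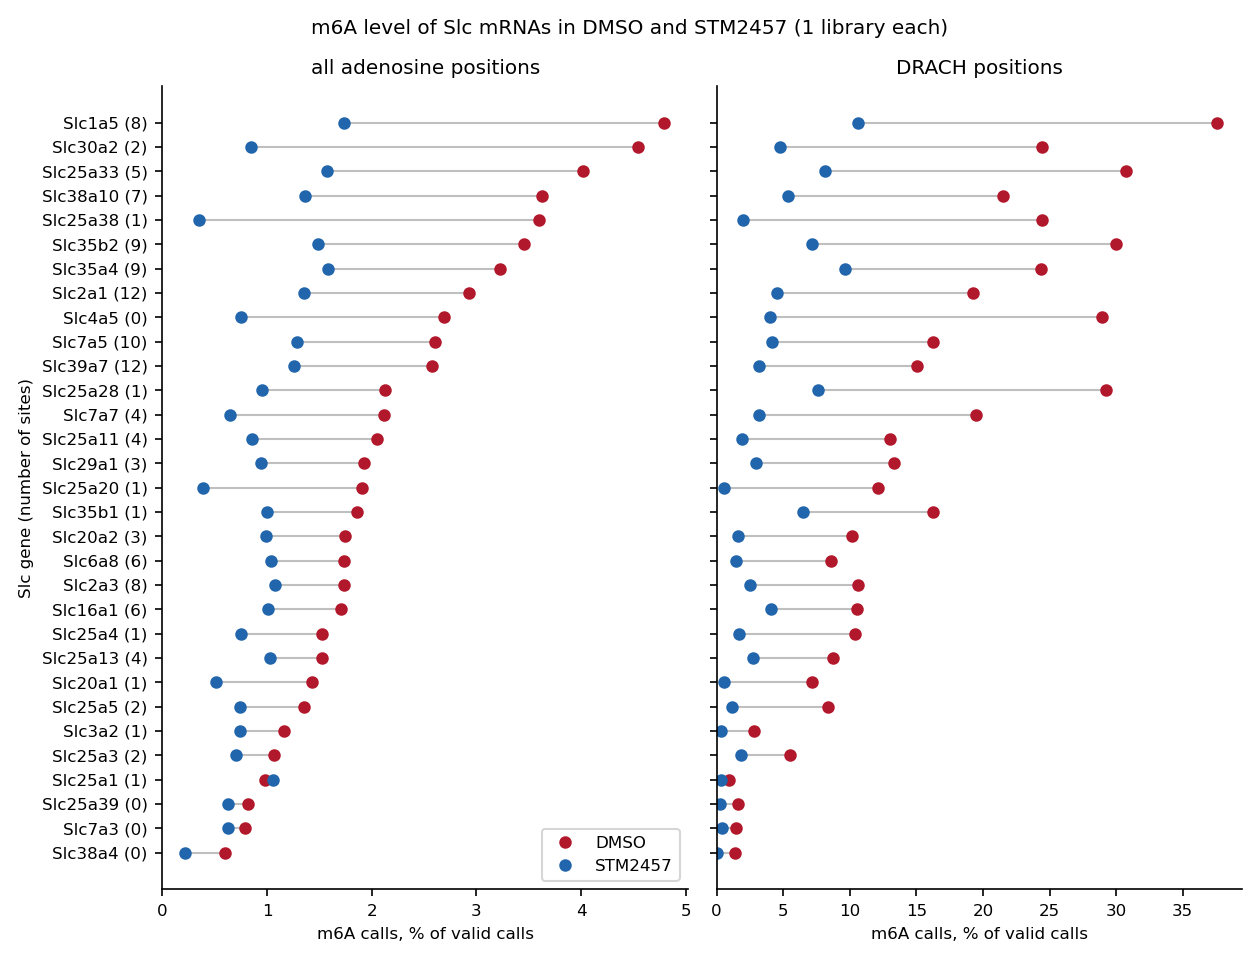
m6A level of each of the 31 Slc genes in the DMSO library (red) and the STM2457 library (blue), as percent of valid calls over all adenosines (left) and over DRACH adenosines alone (right), with the number of sites in brackets. On the left all genes but Slc25a1 are lower in STM2457; on the right all 31 are, with medians of 13% in DMSO and 2.76% in STM2457.

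Most of the loss lay at DRACH positions. Over the 679 Slc DRACH positions the summed level was 10.5% in DMSO and 2.43% in STM2457, while over the 7134 other positions it was 0.902% and 0.809%. The median decrease per gene at DRACH positions was 77.9%, with a range of 59.6 to 100%, and all 31 genes, Slc25a1 included, were at most at 50% of DMSO there. For all protein_coding genes the corresponding median decrease was 79.9%, slightly larger than for the Slc genes. How many of all genes were at most at 50% at DRACH positions was not counted, so the count of 31 cannot be called particular to Slc mRNAs. The level over all adenosines averages over both kinds of position, so it moved less than the level at DRACH positions.

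The 2 glucose transporters, Slc2a1 (GLUT1) and Slc2a3 (GLUT3), carried 20 of the 124 sites. Slc2a1 had 1218 m6A calls of 41595 in DMSO (2.93%) and 340 of 25198 in STM2457 (1.35%), and its 12 sites all lay in the 3′ UTR. Slc2a3 went from 1.74% of 150558 calls to 1.07% of 142052. A run of 3 Slc2a1 sites was spaced 14 and 15 nt apart, and the first of them was:
Slc2a1 chr4:119136836 (plus strand, 3′ UTR): gtagggctGGACCtatggcca
It was at 68.8% in DMSO and 7.46% in STM2457, while the 2 downstream neighbours printed above, 119136850 and 119136865, went from 94.3% to 25.4% and from 91.9% to 42.1%. Of the 3, the site that was lowest in DMSO was thus also lowest after the inhibitor. In Slc2a3, the 2 last CDS sites, 10 nt apart at chr6:122730044 and 122730034, were alike at 78.2% and 69.9% in DMSO and at 14.5% and 13.1% in STM2457.

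The amino acid transporters had 8 genes with positions and 36 sites on 6 of them. Slc7a5 (LAT1), which imports large neutral amino acids as a heterodimer with the glycoprotein Slc3a2, had 10 sites, all in its 3′ UTR, and a level of 2.61% in DMSO and 1.28% in STM2457. Slc3a2 itself, at a median coverage in DMSO close to that of Slc7a5, had 1 site:
Slc3a2 chr19:8707843 (minus strand, CDS): ccagcgctAAACTtttgctta
It was at 28.2% of 110 calls in DMSO and 1.08% of 93 in STM2457. The 2 subunits of this transporter therefore differed in the number of sites, 10 on 393 covered adenosines against 1 on 408, and the covered parts differ too: the Slc7a5 positions all lay in its last exon, the Slc3a2 positions in all 9 of its exons.
Slc7a7, the y+LAT1 exchanger of basic amino acids, had 4 sites and went from 2.12% to 0.64%. Slc38a10 had 7 sites and went from 3.63% to 1.36%. The creatine transporter Slc6a8 had 6 sites and went from 1.74% to 1.04%. Slc7a3, a cationic amino acid transporter, had 0 sites on 339 adenosines and 0.79% in DMSO, and Slc38a4 had 0 on 54.

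Slc1a5 (ASCT2), a glutamine transporter, had the highest level of the 31 genes, with 228 m6A calls of 4757 in DMSO (4.79%) and 62 of 3581 in STM2457 (1.73%). Its 132 positions all lay in exon 1 of 9, a first exon of 1136 nt, at a median coverage of 37 and 27 calls, and no position of its other exons was analysed here. Reads start at the poly(A) tail, so coverage of a first exon alone is unusual; its reason could not be determined, and the level of Slc1a5 stands for that exon only. The 5 sites in its 5′ UTR were among 8 Slc sites in 5′ UTRs, and 2 of them had GGACG, which differs from DRACH in the last base only. They are printed with DRACH, or the called A alone where it is not DRACH, in capitals.
Slc1a5 chr7:16781768 (plus strand, 5′ UTR): ggagcctaGGACCctccagtt
Slc1a5 chr7:16781794 (plus strand, 5′ UTR): gatccggtggAcgcataactt
Slc1a5 chr7:16781810 (plus strand, 5′ UTR): aacttcaaGGACCgctgcaaa
Slc1a5 chr7:16781849 (plus strand, 5′ UTR): ggtcctaaggAcgtcacacct
Slc1a5 chr7:16781880 (plus strand, 5′ UTR): ctcacaagGAACCtccctgtt
Slc1a5 chr7:16781992 (plus strand, CDS): tccagagaGGACCagagtgcg
The GGACG site at 16781794 was at 52.6% of 38 calls in DMSO and 3.70% of 27 in STM2457, with adjusted p = 4.3e-05 by Fisher's exact test. The GGACG site at 16781849 went from 66.7% of 39 calls to 21.4% of 28. The CDS site at 16781992 was methylated in all 36 DMSO calls (interval 90.3 to 100%) and at 51.9% of 27 calls in STM2457 (31.9 to 71.3%). These 2 GGACG sites were the only non-DRACH sites of Slc mRNAs that were called lower.

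Slc39a7 (ZIP7), which releases zinc from the endoplasmic reticulum, had as many sites as Slc2a1, 12, on 497 adenosines spread over all 7 of its exons. Its level was 2.58% in DMSO and 1.26% in STM2457. Exon 1, of 797 nt, held 8 of the sites and the last exon 3, with 1 in exon 6. The 9 DRACH sites among them were at 25.6 to 97.8% in DMSO and at 0 to 37.5% in STM2457. The other metal transporter, Slc30a2, had 2 sites on 39 adenosines and went from 4.54% to 0.84%, at a median coverage of 25 and 28 calls.

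Slc16a1 (MCT1), which carries lactate and pyruvate, kept more of its methylation than most. Its level went from 1.71% of 23636 calls to 1.01% of 27791, a decrease of 41.1%, and its decrease at DRACH positions, 61.4%, was among the smallest of the 31 genes. Of its 6 sites, 4 lay in the CDS within exon 4 of 5 (846 nt) and 2 in the 3′ UTR.
Slc16a1 chr3:104652898 (plus strand, CDS): gatattttTGACTggagagga
Slc16a1 chr3:104653120 (plus strand, CDS): aaattcctGGACTtgtcgctg
Slc16a1 chr3:104653187 (plus strand, CDS): tgttttttGGACTctttaccc
Slc16a1 chr3:104653310 (plus strand, CDS): cgtccatgGGACTtgcagcca
Slc16a1 chr3:104655811 (plus strand, 3′ UTR): ctcagtgcAGACAgtggacat
Slc16a1 chr3:104655818 (plus strand, 3′ UTR): cagacagtGGACAtttgtgtg
The 3 GGACT sites of exon 4 started from like levels, 100%, 96.6% and 93.1%. In STM2457 they were at 65.7% of 35 calls (interval 47.8 to 80.9%), 82.9% of 35 (66.4 to 93.4%) and 22.9% of 35 (10.4 to 40.1%). The middle one was not called (adjusted p = 0.12, Fisher's exact test), and the third was lower than both, with an interval that does not overlap theirs. In the 3′ UTR pair, 7 nt apart, the AGACA site went from 36.8% to 0 of 41 calls, which allows up to 8.60%, while the GGACA site went from 97.2% to 71.4% of 42.

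The 3 Slc35 genes, classed here by family number alone as nucleotide sugar transporters, had 19 sites. Slc35b2, a transporter of the sulfate donor PAPS, had 9 sites and went from 3.46% to 1.49%. Slc35a4 had 9 sites too, at a median coverage of 32 and 30 calls, and went from 3.22% to 1.58%. Slc35b1 had 1 site, at 92.5% of 40 calls in DMSO and 34.6% of 52 in STM2457. Of the 18 sites on Slc35a4 and Slc35b2, 14 lay in coding sequence, and both genes have a long last exon, of 2334 and 1362 nt, that holds much of the CDS. One Slc35a4 site, in the CDS within GGACT, was methylated in all 31 calls in DMSO and in all 28 in STM2457, the lower bound of the second being 87.7%. It was the only Slc site at 100% in both libraries.

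The mitochondrial carriers had the most genes, 11, but only 22 sites on 10 of them. The ADP/ATP carrier Slc25a5 (ANT2) was by far the deepest Slc mRNA, with 24% of all Slc valid calls in DMSO and a median coverage of 829.5 calls. It had 2 sites, both in the 3′ UTR and both just above the threshold, and its paralog Slc25a4 (ANT1) had 1 in the CDS of exon 2.
Slc25a5 chrX:36798612 (plus strand, 3′ UTR): aacattctGGACAgattctct
Slc25a5 chrX:36798737 (plus strand, 3′ UTR): taatgatgGGACTcaattata
Slc25a4 chr8:46209216 (minus strand, CDS): tacccgctGGACTttgctagg
The first Slc25a5 site was at 31% of 881 calls in DMSO (interval 27.9 to 34.2%) and 4.19% of 549 in STM2457 (2.67 to 6.22%). The second was at 27.6% of 862 and 2.86% of 560. The Slc25a4 site was at 77.2% of 250 calls and 11.5% of 278. Reads of these near-identical carriers, and of their processed copies elsewhere in the genome, can be assigned to one or the other, so their values are less certain. Slc25a33, a pyrimidine nucleotide carrier, had 5 sites and the highest level of the carriers, 4.02% in DMSO and 1.57% in STM2457. Slc25a39, a glutathione carrier, had 0 sites on 189 adenosines at a median coverage of 322 calls, and 0.82% in DMSO. The phosphate carrier Slc25a3, with 153 positions, had 2 sites and went from 1.07% to 0.70%. The equilibrative nucleoside transporter Slc29a1 had 3 sites, at 75 to 86.1% in DMSO and 18.1 to 20.5% in STM2457. The phosphate and bicarbonate transporters Slc20a1, Slc20a2 and Slc4a5 had 1, 3 and 0 sites. For Slc4a5 the 0 reflects coverage, since its median was 25 calls in STM2457 and a site needs more: its 3 DRACH positions together were at 28.9% in DMSO and 4% in STM2457.

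Site by site, Fisher's exact test with Benjamini-Hochberg adjustment over the 6159 sites of all protein_coding exons called 108 of the 124 Slc sites lower in STM2457, or 87.1%, where 91.6% of all sites were called lower. It called 0 higher, where 0.292% of all sites were, and at an unadjusted p under 0.05 the number higher was also 0. This test compares 2 libraries. Over the 122 sites at 25% or more in DMSO, the mean relative decrease was 72.3% (SD 23.5 over sites) and the median 79.1%, beside 74.8% and 80.2% over all 6056 such sites. In STM2457, 27 of the 122 were still at 25% or more (22.1%, beside 20.8% of all), and 18 kept at least 50% of their level (14.8%, beside 10.4%). After the inhibitor 7 Slc sites had no m6A call left.

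Sites that were nearly full in DMSO kept more. There were 22 Slc sites of 90% or more on 10 genes, with a median of 41.6% in STM2457 and a median decrease of 56.6%, and 19 of them were still at 25% or more. The 53 sites between 25 and 50% in DMSO had a median decrease of 84.2% and a median of 5.41% in STM2457. Over all protein_coding sites the medians were alike, a decrease of 55.3% for the first class and 86.0% for the second.

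**Figure D2:**
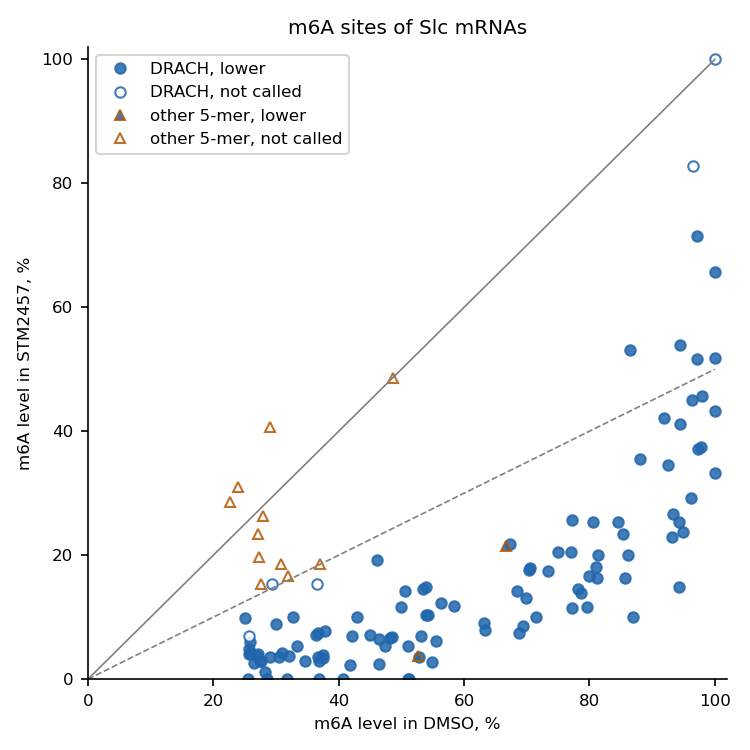
Level of each of the 124 Slc sites in DMSO (x axis, percent) and STM2457 (y axis, percent); circles are DRACH sites and triangles other 5-mers, filled where the site was called lower by Fisher's exact test. The solid line marks equal levels and the dashed line 50% of the DMSO level; 18 sites at 25% or more in DMSO lie on or above the dashed line, and the open triangles lie on or above the dashed line, 3 of them above the solid line.

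Of the 124 sites, 111 were in DRACH and 13 were not. Of the DRACH sites 106 were called lower (95.5%, beside 97.5% of all DRACH sites), and the 5 others were the Slc16a1 and Slc35a4 sites above, 1 in Slc25a13 and 2 in Slc38a10. Of the non-DRACH sites 2 were called lower, the GGACG sites of Slc1a5 (15.4%, beside 45.7% of all non-DRACH sites). The 11 others, on 8 genes, were at 22.6 to 48.7% in DMSO and at 15.4 to 48.6% in STM2457. Their calls failed often: the share of failed calls, those the caller did not decide with confidence, was 19.4 to 64.8% in DMSO, where the median DRACH site had 3.23%. The part that failed calls play in these values was not tested beyond counting them as unmodified, a setting under which most of these sites fell under 25%.

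Of the 122 sites at 25% or more in DMSO, 6 had a relative decrease under 25% (4.92%, beside 4.29% of all such sites), and 2 more reached 25% in STM2457 alone. Besides Slc16a1 104653187 and the Slc35a4 site, these 8 were 6 outside DRACH, printed with the called A in capitals.
Slc39a7 chr17:34031131 (minus strand, CDS of exon 1): gaggacttccAtggccacagt
Slc39a7 chr17:34031092 (minus strand, CDS of exon 1): gatttccaccAtggccacagc
Slc39a7 chr17:34029521 (minus strand, CDS of exon 6): gtctggctgcAgcaagaagca
Slc25a1 chr16:17926685 (minus strand, CDS): ggatttttccAcggggttaga
Slc6a8 chrX:73677343 (plus strand, CDS): gaggctctccAcggggctgga
Slc2a1 chr4:119137242 (plus strand, 3′ UTR): acactaagttAtagtatatct
The first 2 Slc39a7 sites have the 5-mer CCATG and both the Slc25a1 and the Slc6a8 site have CCACG. The Slc39a7 site at 34031131 was at 48.7% of 39 calls in DMSO and 48.6% of 37 in STM2457, with 56.2% and 44.8% of the calls failed. It lies 6 nt downstream of a GGACT site, at 34031137, which went from 40.7% of 86 calls to 0 of 66. The Slc25a1 site was at 23.9% of 71 calls and 31% of 42 (adjusted p = 0.52, Fisher's exact test), the Slc6a8 site at 22.6% of 31 and 28.6% of 28, and the Slc39a7 site at 34031092 at 29% of 31 and 40.7% of 27. The intervals of each of these sites overlap between the libraries, and none was called.

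By 5-mer, GGACT held the most Slc sites. Of 54 covered GGACT positions on Slc mRNAs, 37 were at 25% or more in DMSO (68.5%, beside 55.2% of 2436 on all genes). For GGACA it was 17 of 47 (36.2%, beside 31.9% on all genes), for GGACC 14 of 44 and for GAACT 9 of 24 (37.5%, beside 35.9%). For TGACT it was 9 of 53 (16.98%, beside 17.38%), and for AGACT 7 of 30, a lower share than on all genes (23.3%, beside 31.9%). For AAACT it was 6 of 31, a higher share (19.4%, beside 10.2%). None of the 58 TGACC, 35 AAACC, 35 TGACA and 33 AAACA positions reached 25%, where on all genes 0.34 to 2.39% did. The share at GGACC, 31.8%, compares with 19.1% on all genes.

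Pairs of neighbouring sites at most 15 nt apart on 1 transcript numbered 14, on 8 genes, and 9 of them joined 2 DRACH sites. In 5 of these 9 the levels in DMSO differed by 25 points or more. At Slc7a5, sites 8 nt apart went from 98.0% to 45.7% (printed first above) and from 69.5% to 8.57%.
Slc7a5 chr8:121882777 (minus strand, 3′ UTR): ggactttcTGACTttctgggg

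By place on the transcript, 8 Slc sites lay in a 5′ UTR, 49 in coding sequence and 67 in a 3′ UTR. The 3′ UTR share, 54.0%, compares with 67.3% of all protein_coding sites, and the share in first exons, 16.1%, with 1.30%. The covered positions differed as well: 63.3% of Slc positions and 72.3% of all lay in last exons, and 5.99% of Slc DRACH positions against 2.04% of all in first exons. Among Slc sites with more than 50 valid calls the 3′ UTR share was 74.1%. The first-exon sites came from 3 genes, 8 from Slc1a5, 8 from Slc39a7 and 4 from Slc6a8. In last exons lay 95 sites (76.6%, beside 86.0%), and 81.9% without Slc1a5. The median decrease was 79.4% in 5′ UTRs, 80.0% in CDS and 77.7% in 3′ UTRs. Sites in 3′ UTRs lay a median of 250 nt past the stop codon, beside 204 nt for all protein_coding genes. Their range was 15 to 1944 nt, and 38 of the 67 lay within 300 nt.

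**Figure D3:**
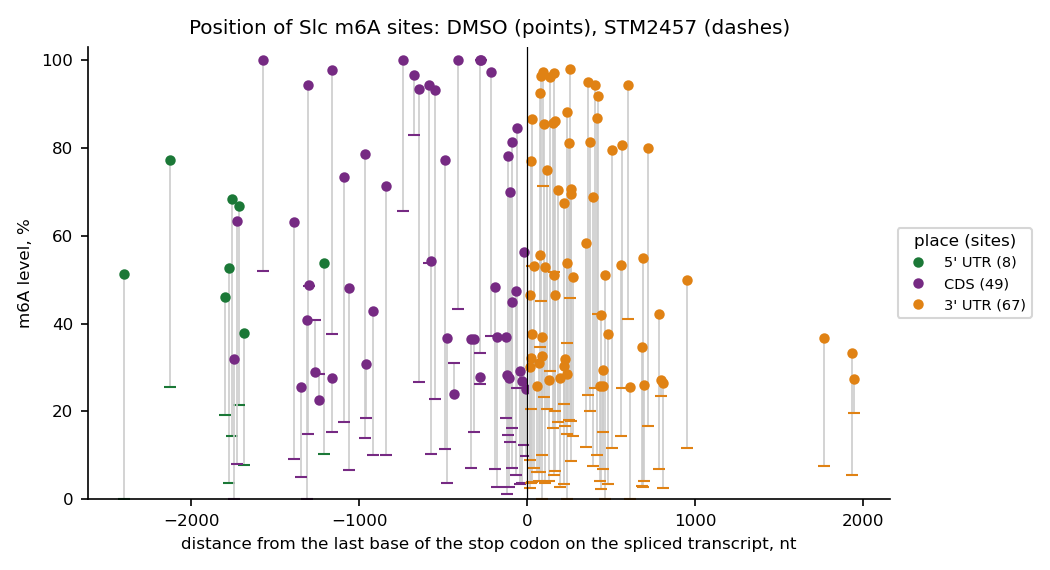
Distance of each of the 124 Slc sites from the last base of the stop codon on the spliced transcript (x axis, nt, negative upstream) and its m6A level (y axis, percent), as a point for DMSO and a dash for STM2457, coloured by place. Of the 67 sites in 3′ UTRs, 38 lie within the first 300 nt and the others up to 1944 nt, and the CDS and 5′ UTR sites reach more than 2000 nt upstream.

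The share of methylated positions differed by exon length. Of the 141 DRACH positions covered in first or internal Slc exons under 200 nt, on 59 exons of 13 genes, 0 were at 25% or more in DMSO (interval up to 2.58%). In such exons of at least 200 but under 400 nt it was 2 of 23, both in exon 1 of Slc6a8, which is 266 nt long in the principal transcript and the downstream part of a 901 nt exon in another, where 2 more sites lay and were counted in the longest class. In those of 400 nt or more it was 18 of 67, or 26.9% (16.8 to 39.1%), on 7 exons, of which 5 held a site. In last exons it was 91 of 420, or 21.7%. All protein_coding genes had 0.206%, 2.22%, 21.8% and 18.4% in the same 4 classes. The 20 DRACH sites outside last exons sat on exons of 266 to 1136 nt in Slc1a5, Slc39a7, Slc16a1, Slc6a8 and Slc25a4, with a median of 846 nt. No DRACH site of an Slc mRNA lay under 50 nt from an exon junction, and 7 lay under 100 nt, the nearest at 54 nt in Slc7a7. These 7 were among 214 covered Slc DRACH positions under 100 nt, or 3.27%, beside 2.06% of 12984 on all genes. For all genes, the share under 50 nt is not given here. The intervals treat positions as independent, but DRACH positions of 1 exon share reads, so the intervals are too narrow.

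**Figure D4:**
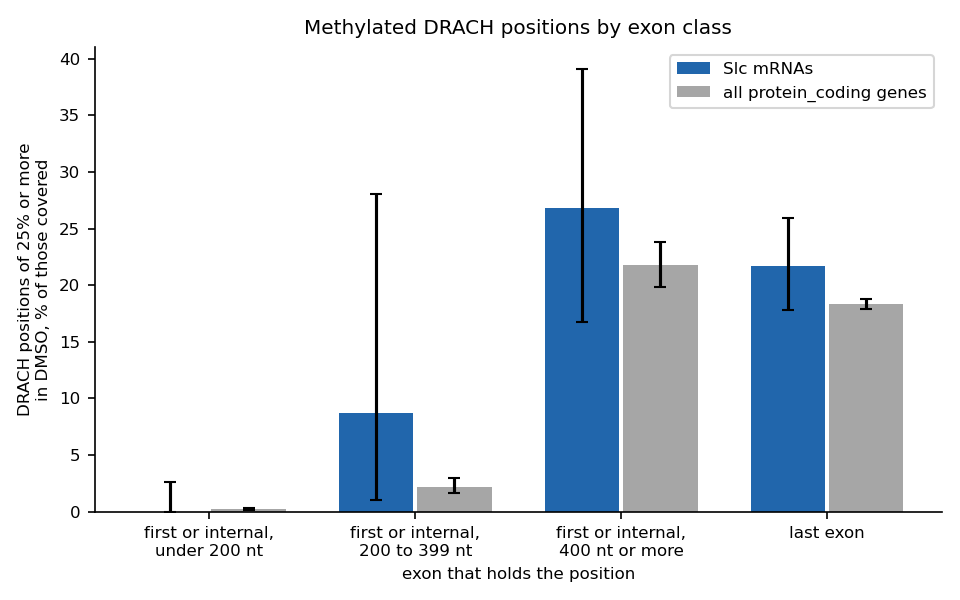
Share of covered DRACH positions at 25% or more in the DMSO library (y axis, percent) by the class of exon that holds them, for Slc mRNAs (blue) and all protein_coding genes (grey), with exact 95% binomial intervals for counting error. Bars for exons under 200 nt are at or near 0, and those for first or internal exons of 400 nt or more are of a height similar to those for last exons.

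Sites chosen in another library were lower after the inhibitor too. Of the Slc positions covered in both datasets, 33 on 8 genes were at 25% or more in WT, a library that does not enter the STM2457 comparison. Their median was 58.3% in WT, 77.2% in DMSO and 14.5% in STM2457. All 33 were lower in STM2457 than in DMSO, 30 were called lower, and the mean relative decrease was 68.4% (SD 22.7). Of the 1126 sites of all protein_coding genes chosen in this way, 1076 were lower and 998 called lower, with a mean decrease of 67.6%. DMSO was above WT at 27 of the 33, and over all protein_coding sites so chosen it was at 72.4%. At the gene level over shared positions the order was the other way for most: DMSO was below WT in 11 of 13 Slc genes. The exceptions were Slc39a7 (2.12% in DMSO, 1.93% in WT) and Slc7a5 (2.69%, 2.38%), and Slc7a7 was at 2.59% in both. The share of all genes below WT was not counted, so this order cannot be called particular to Slc mRNAs.

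Read depth of Slc mRNAs moved little as a group. Relative to the median of all genes, the log2 ratio of valid calls, STM2457 over DMSO, had a median of -0.03 over the 31 Slc genes. The unscaled median of all genes was -0.28. One gene, Slc35b1, was at least 1.5-fold higher (log2 ratio 0.62), where 9.4% of all genes were, and 2, Slc25a20 and Slc25a38, were at least 1.5-fold lower (both -0.61), where 8.9% were. Positions needed 25 calls in both libraries, which narrows these ratios, and fewer cells with an mRNA and less RNA per cell cannot be told apart in bulk RNA.

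As other membrane transport genes, a list of 49 ATPases, channels and carriers outside the Slc symbols was used, of which 14 had positions. All 14 were lower in STM2457, 4 of them to at most 50% of DMSO. Of their 42 sites, on 9 genes, 38 were called lower and 0 higher. The median decrease per gene was 32.8%, beside 51% for the Slc genes, while the median decrease per site was 74.0%, beside 79.1% for the Slc sites. Mfsd5, a molybdate transporter, was at 6.43% in DMSO with 15 sites, while the mitochondrial porin Vdac1 had 0 sites at 0.90%.

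In the Mettl5 dataset, the mean level of Slc sites was above WT in both clones, and no Slc site was called in either clone. There were 73 Slc sites on 11 of the 15 genes, 67 of them in DRACH, with a mean level of 51.4% in WT, 57.1% in c1 and 55.6% in c2. Over all 1847 protein_coding sites the means were 44.1%, 46.6% and 46.6%. Higher than WT in both clones were 48 Slc sites, or 65.8%, where 45.2% of all sites were, and lower in both were 8, where 23% were. Both clones were compared with the same WT library, so a low value there raises both differences. A site also had to reach the site threshold in any of the libraries, most of which are clones, which favours sites that are higher in the clones. Of the 73 Slc sites, 55 reached it in WT, 65 in c1 and 66 in c2. All protein_coding sites were chosen in the same way. The part that this selection plays in the counts of higher and lower sites was not tested. By gene, the sites higher in both clones were 9 of 13 in Slc2a1, 9 of 15 in Slc38a2, 6 of 7 in Slc16a1, 6 of 8 in Slc7a5 and 6 of 10 in Slc16a3.

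No Slc site was called in either clone by Fisher's exact test adjusted over all sites. The smallest adjusted p was 0.21 in c1 and 0.37 in c2, and of all protein_coding sites 0% were called higher and 0.0541% lower in both clones. At an unadjusted p under 0.05 in both clones 3 Slc sites were higher, where 1.84% of all sites were, and 0 were lower. They are shown here, together with a Slc39a7 site that had a log2 fold change of at least 1.5 in both clones, all 4 chosen after their values were seen.
Slc16a1 chr3:104652898 (plus strand, CDS): gatattttTGACTggagagga
Slc2a1 chr4:119136850 (plus strand, 3′ UTR): atggccaaGGACAcactaata
Slc7a7 chr14:54369627 (minus strand, 3′ UTR): catgtttcAGACTtcataaat
Slc39a7 chr17:34028473 (minus strand, 3′ UTR): ctccctctGAACTagttagtg
The Slc16a1 site was at 57.6% of 33 calls in WT, 89.7% of 29 in c1 and 85.4% of 41 in c2. The Slc2a1 site was at 84.4% of 128, 93.0% of 128 and 93.6% of 173. The Slc7a7 site was at 5.41% of 37, 23.1% of 52 and 25% of 32, and the Slc39a7 site at 11.4% of 35, 50% of 30 and 32.5% of 40. That both clones were above WT at these sites follows from how they were chosen. The Slc7a7 and Slc39a7 sites were the 2 Slc sites with a log2 fold change of at least 1.5 in both clones, where 1.14% of all sites had one, and none was as far below. Both were under 25% in WT and counted as sites only through a clone, so the site threshold itself selected them for a rise.

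Per gene, 8 of the 15 Slc mRNAs were higher than WT in both clones, where 36.1% of all genes were, and 4 were lower in both, where 32.5% were. The median difference between the mean of the clones and WT was 0.114 percentage points, and the median gap between the clones was 0.164 points. The difference to WT was larger than the gap between the clones in 6 of the 15 genes, and in 456 of all 1009. Over all genes the median difference was 0.0094 points and the median gap 0.157 points. No Slc gene was at least 1.5-fold higher in both clones, where 2.68% of all genes were. One was at least 1.5-fold lower, where 1.39% were: Slc25a1, with 8 m6A calls of 705 in WT (1.13%), 3 of 706 in c1 (0.42%) and 6 of 1016 in c2 (0.59%), on 27 positions without a site. The difference rests on these few m6A calls.

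The neutral amino acid transporter Slc38a2 (SNAT2) and the lactate exporter Slc16a3 (MCT4) had positions in the Mettl5 dataset alone. Slc38a2 had the most sites of any Slc gene there, 15, all in its 3′ UTR, and a level of 2.40% in WT, 2.60% in c1 and 2.46% in c2. Its highest site was at 94.1% in WT, 95.8% in c1 and 96.2% in c2.
Slc38a2 chr15:96688050 (minus strand, 3′ UTR): aggttcctGAACTgaattctc
Slc16a3 had 10 sites and the highest level of the 15 genes, 3.27% in WT, 3.57% in c1 and 3.41% in c2. Its highest site, in the CDS, was at 94.9%, 96.1% and 100%.
Slc16a3 chr11:120956722 (plus strand, CDS): tggtgctgGGACTctttgtgc
Slc7a5 was at 2.38%, 3.06% and 2.74%, above WT in both clones, with a gap of 0.32 points between the clones. Slc2a1 was at 3.20%, 3.38% and 3.22% and Slc2a3 at 1.94%, 2.06% and 2.13%. Slc25a5 was at 1.75%, 1.61% and 1.56%, below WT in both, and Slc3a2 at 1.09%, 0.99% and 0.91%. The 3 exon 4 GGACT sites of Slc16a1 were between 91.2% and 100% in all 3 libraries.

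**Figure D5:**
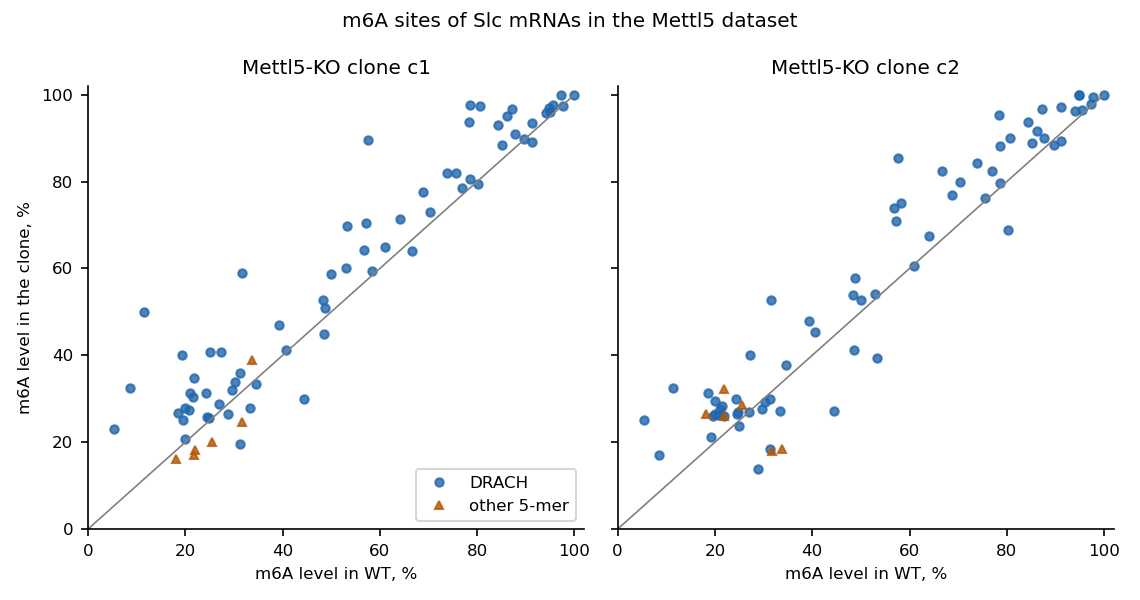
Level of each of the 73 Slc sites in WT (x axis, percent) and in the Mettl5-KO clones c1 (left) and c2 (right, y axis, percent); circles are DRACH sites and triangles other 5-mers, and the line marks equal levels. Most points lie on or above the line, with 48 sites higher than WT in both clones, and no site was called different in either clone.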

How the data were processed

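Pileups of 5 libraries were used as deposited, 1 per library. Per the study's methods and the labels, the authors demultiplexed nanopore RNA004 reads with WarpDemuX, called bases and m6A with dorado 1.4.0 without restricting calls to DRACH, aligned to mm10 and made the pileups with modkit 0.4.4; positions outside UCSC RefSeq exons were removed with bedtools. The deposited columns used are counts of valid, m6A, unmodified, other-modification and failed calls per position and strand; the deposited percent column is m6A calls over valid calls and was recomputed. All positions had at least 25 valid calls in every library of their dataset. Reads start at the poly(A) tail, so coverage favours 3′ ends.

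Positions were assigned with Python 3.11.15 (pandas 2.3.3, numpy 2.4.6) to exons of GENCODE M21 protein_coding genes on the call's strand and placed on the APPRIS principal transcript, or the next transcript that holds them. Gene levels are summed m6A over summed valid calls and were given no p, since calls of 1 read are not independent. Sites were tested with two-sided Fisher's exact tests (scipy 1.17.1) on m6A and unmodified calls, adjusted by Benjamini-Hochberg (statsmodels 0.14.6) over all sites of protein_coding exons, and the procedure was tested on simulated calls. Named genes were the 10 with most sites, the 10 with most valid calls in DMSO, Slc39a7, Slc7a7 and any called in the clones; named sites were the 10 highest in DMSO with at least 50 calls in both libraries, those with a relative decrease under 25% and those called in a clone, and a few further genes and sites, chosen after their values were seen, are named for their class, place or neighbouring sites. Gene classes follow Slc family numbers. The members, lists and tests were chosen with earlier results of these data known. Alternatives covered coverage, threshold, motif, failed calls, shared exons, transcript choice, site choice, thinning and each clone left out.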

Additional observations from a re-analysis of the deposited data

How the results depend on the processing

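The number of Slc sites called lower in STM2457, 108 of 124, was 56 of 58 with more than 50 valid calls, 67 of 69 at a threshold of 50%, and 30 of 33 for sites chosen in WT, settings that test fewer sites. At a threshold of 10% it was 151 of 297, a smaller share, and the other settings gave 106 to 108. The mean relative decrease was 68.4 to 78.6% in all settings run. The 3′ UTR share of 54.0% was 74.1% with more than 50 valid calls, and 54.0 to 57.7% elsewhere (settings for place chosen after seeing the data). At DRACH positions 31 Slc genes, not 19, were at most at 50% of DMSO, and the Slc25a1 decrease was 59.6% instead of a rise. The share of all genes at that level was not counted at DRACH positions. With failed calls counted as unmodified, Slc39a7 34031131 was 25.8% higher in STM2457 (a relative decrease of -25.8%, adjusted p = 0.45, Fisher's exact test); the cause was not tested. In the clones, 2 sites passed a log2 fold change of 1.5 instead of 0 called by the test. On DRACH positions 2 genes, Slc25a39 (higher) and Slc25a3 (lower), replaced Slc25a1 at 1.5-fold, from few m6A calls. With either clone left out the counts stayed at 1 to 1 for genes and 0 to 0 for sites. No paired analysis was possible because the groups compared share fewer than 2 replicate numbers. Median coverage of the Slc sites was 52.5 calls in DMSO and 46.5 in STM2457, so differences of a few percentage points between libraries were not detectable at most sites.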

Other observations

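The pileups also count calls of modifications other than m6A; the model of the caller covers inosine and ribose-methylated adenosine, and the column used does not tell them apart. On Slc positions these were 0.477% of valid calls in DMSO, 0.450% in STM2457, 0.663% in WT, 0.649% in c1 and 0.690% in c2. The highest share in both libraries of a dataset was at Slc7a5 chr8:121881461, a 3′ UTR adenosine in TTATT, with 30 of 59 calls in DMSO and 24 of 54 in STM2457. A TTATT adenosine in the 3′ UTR of Slc2a3, chr6:122728530, was covered in all 5 libraries, with 32.3% of 201 calls in DMSO, 33.7% of 175 in STM2457, 32.4% of 74 in WT, 27.8% of 79 in c1 and 30.3% of 89 in c2. Both positions were chosen after their values were seen.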
